A study of Mus musculus with 48 samples.

Results

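The apoptosis and necroptosis genes described here were 9 genes chosen by name, *Bax*, *Bcl2*, *Bcl2l11*, *Bbc3*, *Bid*, *Pmaip1*, *Casp8*, *Ripk3* and *Mlkl*, out of 46983 genes in the count tables. Each symbol was matched to its Ensembl identifier, and gene positions are given on the GRCm38 build. All 9 had more than 10 reads over the 48 libraries and entered a test of 19970 genes. The reads behind them, summed over all libraries, ran from 4695 for *Bcl2* to 56 for *Ripk3* and 27 for *Mlkl*. *Ripk3* had no read in 31 libraries and *Mlkl* had none in 35.

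The study asked how the mouse brain responds to permanent occlusion of the middle cerebral artery (MCAO), which leaves a small ischemic lesion in the parietal cortex. Bulk RNA was sequenced from male C57Black/6 mice aged 3 months in 11 groups. The artery was coagulated and cut under isoflurane in the MCAO groups, which held 5 libraries each at 3 h, 12 h, day 3 and day 7 and 4 libraries at 24 h. Sham mice had the same surgery without coagulation (4 libraries at each time), and the control was intact cortex (4 libraries). By the labels the samples came from injured cortex and held both affected and unaffected tissue, whereas the study's text speaks of almost the whole hemisphere on the lesion side. How much of each sample was lesion is not given in either. The libraries were made from the 3′ ends of polyadenylated RNA, and 1522668 to 2826735 reads per library fell on genes (median 1935856). The neuron, astrocyte and oligodendrocyte marker lists had no marker at 0 in any group.

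Apoptosis through mitochondria is set by the BCL2 family. BCL2 holds back BAX, which otherwise opens the outer mitochondrial membrane, and the BH3-only proteins BIM (*Bcl2l11*), PUMA (*Bbc3*), NOXA (*Pmaip1*) and BID relieve that block or act on BAX directly. Caspase-8 (*Casp8*) carries signals from death receptors such as the TNF receptor and cleaves BID. When caspase-8 is inactive, RIPK3 can phosphorylate MLKL, which breaks the plasma membrane in necroptosis. Both forms of death are known from ischemic brain tissue.

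Windows of 250 bases upstream of annotated start sites were available for 8 of the 9 genes (11 windows, RefSeq, GRCm38.p6). Shown are only the windows that held a match to a motif of the factors p53 or FOXO. These factors are known to induce BH3-only genes and *Bax*. The windows shown belong to 3 genes, chosen after their values were seen. Lower case is the window, 5′ to 3′ on the strand of the gene, and capitals mark the match.

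Bcl2l11 (chr2:128125788-128126037, plus strand): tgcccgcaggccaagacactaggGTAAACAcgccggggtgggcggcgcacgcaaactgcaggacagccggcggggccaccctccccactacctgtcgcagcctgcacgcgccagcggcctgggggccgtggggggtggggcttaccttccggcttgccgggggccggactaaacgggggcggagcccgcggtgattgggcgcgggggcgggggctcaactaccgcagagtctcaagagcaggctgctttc
Bbc3 (chr7:16310011-16310260, plus strand): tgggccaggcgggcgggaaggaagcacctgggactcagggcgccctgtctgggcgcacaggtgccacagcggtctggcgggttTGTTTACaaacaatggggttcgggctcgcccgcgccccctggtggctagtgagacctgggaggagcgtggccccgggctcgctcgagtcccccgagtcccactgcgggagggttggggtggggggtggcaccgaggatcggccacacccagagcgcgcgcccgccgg
Bax (chr7:45466899-45467148, minus strand): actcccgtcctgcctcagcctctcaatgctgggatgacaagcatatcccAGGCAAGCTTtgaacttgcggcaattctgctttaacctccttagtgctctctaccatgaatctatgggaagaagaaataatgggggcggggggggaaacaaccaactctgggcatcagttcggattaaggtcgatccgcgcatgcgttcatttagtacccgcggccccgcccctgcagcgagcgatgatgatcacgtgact

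The FOXO core GTAAACA lay 227 to 221 bases before an annotated start site of *Bcl2l11*. On the reverse strand it lay 167 to 161 bases before an annotated start site of *Bbc3*. Both genes have other annotated start sites, whose windows held no match. The FOXO core was found on either strand in 3.17% of all 32851 windows of this length. A p53 half-site lay 201 to 192 bases before the start site of *Bax* and was found in 7.13% of all windows. The interferon-stimulated response element (2.98% of all windows) and the STAT element TTCNNNGAA (7.02%) were in none of the 11 windows. These matches describe letters and were not tested for binding.

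**Figure D1:**
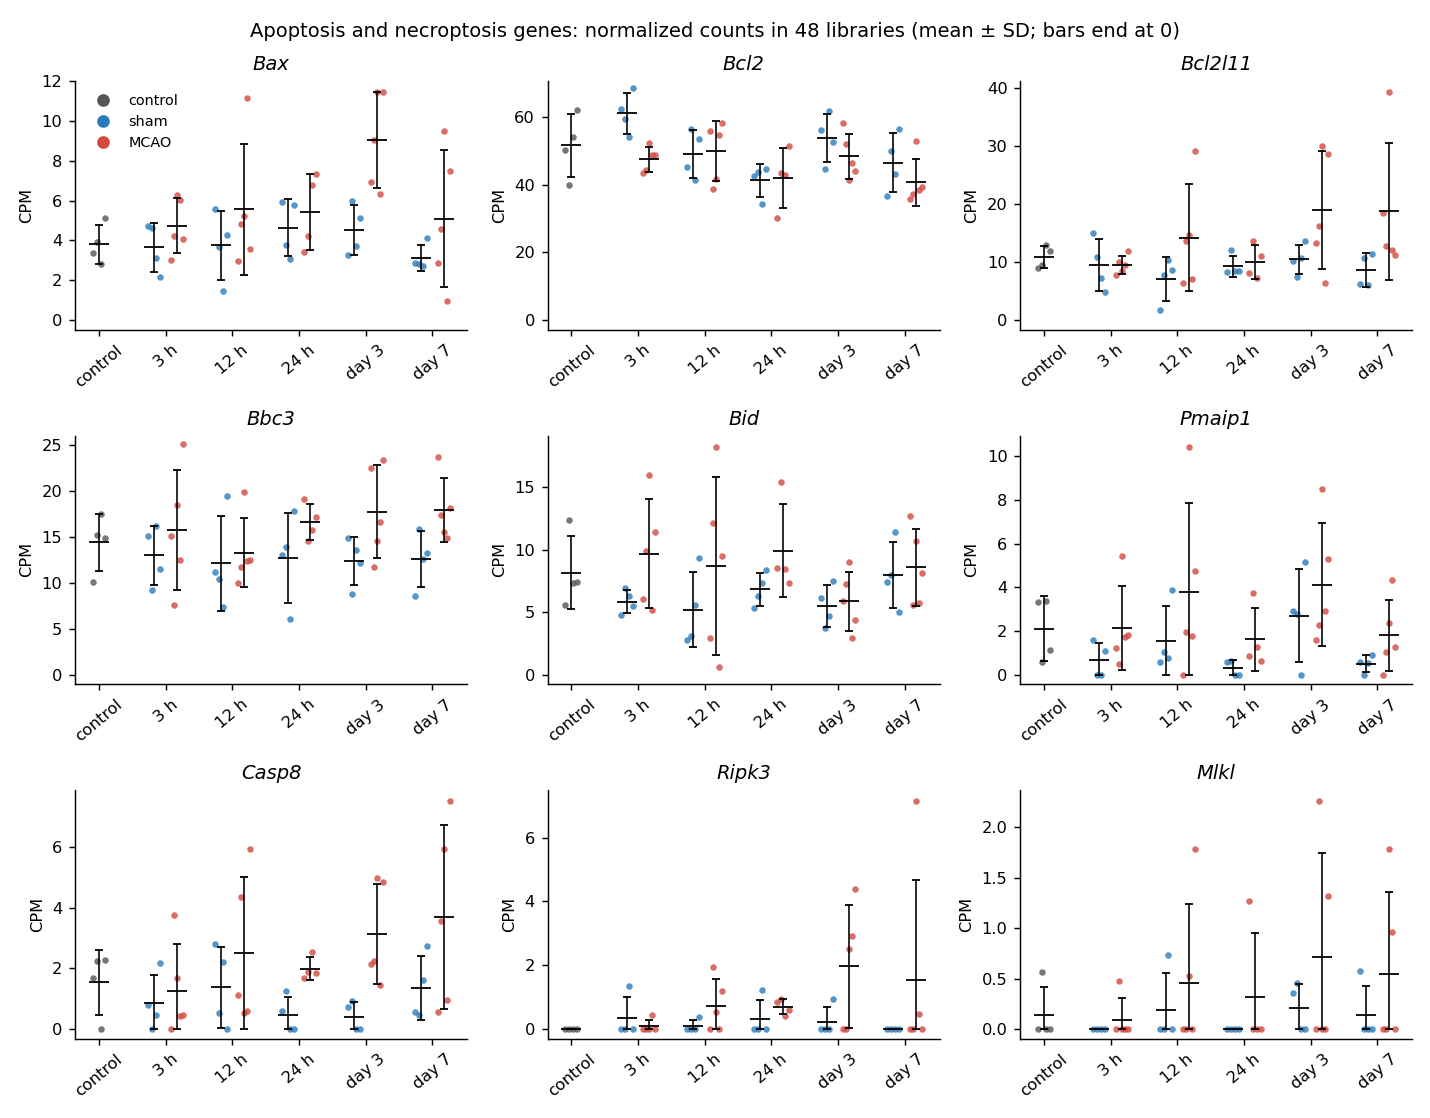
Each panel plots 1 gene, with counts scaled to library size (CPM, linear axis) against group. Points are libraries (black control, blue sham, red MCAO), and bars give the mean ± SD with the lower end stopped at 0. *Bax* at day 3 and *Casp8* at 24 h and day 3 had every MCAO library above every sham library, and *Bcl2* at 3 h had every MCAO library below every sham library.

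None of the 9 genes passed the test between MCAO and sham at a single time. Calls came from edgeR's quasi-likelihood test and required 0.01 as the upper limit of the adjusted p (Benjamini-Hochberg) and a log2 fold change beyond 0.58 in either direction. The share of all genes called was 0.11% at 3 h, 0.411% at 12 h, 0.0901% at 24 h, 4.02% at day 3 and 3.5% at day 7. At an unadjusted p under 0.05 the members numbered 1 at 3 h (8.45% of all genes), 1 at 12 h (14.6%), 0 at 24 h (8.8%), 4 at day 3 (21.6%) and 2 at day 7 (23.5%). DESeq2 called 0 members at each of these times too. When the 5 times were averaged, 1 of the 9 was called, *Casp8*, which was higher after MCAO than in sham, against 4.89% of all genes. Under an unadjusted p of 0.05 the averaged comparison held 8 of the 9, against 26.4% of all genes.

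Most fitted changes were positive. The log2 fold change of MCAO over sham was positive for 6 of the 9 genes at 3 h, 9 at 12 h, 9 at 24 h, 8 at day 3 and 8 at day 7, while 49.5%, 51.2%, 51.6%, 50.8% and 53.3% of all genes were positive. With spike-in scaling it was positive for 7 members at 12 h and 7 at day 3. The counts at 3 h and 24 h include *Mlkl*, and that at day 7 includes *Ripk3*, which had no sham read at those times. The median over the members was 0.83 at 12 h, 0.85 at day 3 and 1.09 at day 7, the last also with *Ripk3* at its lower bound. It was 0.32 at 3 h and 0.45 at 24 h over 8 genes, without *Mlkl*, which had no sham read then. The median over all genes lay between 0 and 0.06. Against control, MCAO was positive for 5, 7, 6, 7 and 7 of the 9 genes in the same order of times. Over all genes these shares were 48.8%, 53.3%, 51%, 51.8% and 51.5%. The medians of the members were then 0.05, 0.51, 0.28, 0.95 and 0.39, with *Ripk3*, which had no control read, at its fitted value. Sham against control was positive for 2, 2, 2, 5 and 0 of the 9. Of all genes 47.1%, 49.7%, 48.8%, 48.9% and 46.7% were. These counts take *Ripk3* at its fitted value, though it had no control read. At day 7 *Ripk3* had no sham read either and so no direction. The study's text counts the bulk replicates as separate mice, while the labels tell the libraries of a group apart by letter only. P-values measure the spread between these libraries. In bulk tissue fewer cells of a type and less RNA per cell cannot be told apart.

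*Bcl2* (chr1:106538178-106714274, minus strand), the guard against mitochondrial death, was the best measured member, with 56 to 158 reads per library. At 3 h it stood at 43.4, 44.4, 52.4, 48.7 and 48.7 CPM after MCAO and at 62.5, 59.3, 54.2 and 68.7 CPM in sham. Every MCAO library was below every sham library, which held for 1.31% of all genes at that time. The means were 47.5 ± 3.67 (SD, n = 5) and 61.2 ± 6.05 (SD, n = 4), a log2 fold change of -0.36 (SE 0.16, adjusted p = 0.531). The sham group at 3 h had the highest mean of the 11 groups, and the control stood at 51.6 ± 9.21 CPM (SD, n = 4). Against that control, *Bcl2* at 3 h after MCAO differed by -0.12 on the log2 scale (SE 0.16, adjusted p = 0.89). From 12 h to day 7 its change against sham lay between -0.20 and 0.03. The group means ran from 40.7 to 61.2 CPM. At day 7 the 95% interval of the log2 change against sham was -0.52 to 0.12. In a later Gencode release than that of the counting, the antisense transcript *D630008O14Rik* shares exon bases with *Bcl2*. The strand setting of the counting is not given in the sources used here.

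*Bax* (chr7:45461697-45466898, minus strand), the pore former, had its highest mean at day 3 after MCAO. The MCAO libraries then held 6.94, 9.04, 11.5, 6.35 and 11.5 CPM, and the sham libraries held 3.26, 6.0, 3.74 and 5.15 CPM. All 5 lay above all 4, as did 4.33% of all genes. The means were 9.05 ± 2.42 (SD, n = 5) and 4.54 ± 1.26 (SD, n = 4), a log2 fold change of 1.00 (SE 0.40, adjusted p = 0.122). These values rest on 13 to 26 reads per MCAO library and 8 to 13 per sham library. At the other times the change was 0.37 (3 h), 0.57 (12 h), 0.20 (24 h) and 0.66 (day 7), with overlapping libraries. The averaged change was 0.56 (SE 0.19, adjusted p = 0.0414), short of the threshold. In that later Gencode release a transcript on the same strand, *Gm45808*, shares exon bases with *Bax*. If the counting also listed *Gm45808*, the counts of *Bax* may miss reads that fall on both.

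The opposed pair was also set against each other as reads of *Bax* per 100 reads of *Bcl2*, as a description with no test. Summed over the libraries of a group, this ratio was 7.38 in control and 6.10 to 11.3 in the sham groups. After MCAO it was 10.2 at 3 h, 10.6 at 12 h, 12.9 at 24 h, 18.9 at day 3 and 12.0 at day 7. By library, the ratios of MCAO and sham overlapped at every time. The log2 ratio at day 3 ran from -3.07 to -1.85 after MCAO and from -4.11 to -2.90 in sham. At day 7 it ran from -5.32 to -2.39 after MCAO and from -4.16 to -3.68 in sham. At day 3 the *Bcl2* change was -0.15 (SE 0.16, adjusted p = 0.621).

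*Bcl2l11* (chr2:128126038-128162547, plus strand) encodes BIM, a BH3-only protein that binds all the BCL2-like guards. At day 7 it stood at 18.5, 12.7, 39.3, 12.0 and 11.3 CPM after MCAO and at 6.29, 10.7, 6.0 and 11.4 CPM in sham. Library C held the value of 39.3 CPM, and the lowest MCAO library fell within the sham range. The log2 fold change was 1.09 (SE 0.41, adjusted p = 0.0826). At day 3 the MCAO libraries held 13.3, 16.3, 30.0, 6.35 and 28.6 CPM and the sham libraries 10.2, 7.38, 10.7 and 13.6 CPM (log2 fold change 0.85, SE 0.39, adjusted p = 0.188). The MCAO spread at day 3 took in values below every sham library as well as above all of them. At 12 h the change was 0.93 (SE 0.42, adjusted p = 0.281), while at 3 h and 24 h it was -0.01 and 0.09. The averaged change was 0.59 (SE 0.19, adjusted p = 0.0237).

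*Bbc3* (chr7:16308393-16318205, plus strand) encodes PUMA, a p53 target that also binds all the guards. Its group means stayed between 12.1 and 17.9 CPM. At day 7 the MCAO libraries held 23.7, 17.3, 15.5, 14.9 and 18.2 CPM and the sham libraries 8.58, 15.9, 12.5 and 13.2 CPM, which overlapped. The log2 fold change was 0.50 (SE 0.29, adjusted p = 0.299), and it lay between 0.12 and 0.51 at the other times. The averaged change was 0.35 (SE 0.13, adjusted p = 0.06).

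*Bid* (chr6:120891930-120916853, minus strand), the BH3-only protein that caspase-8 cleaves, had its larger fitted changes early. Its log2 fold change was 0.74 at 3 h, 0.68 at 12 h and 0.53 at 24 h, and then 0.09 at day 3 and 0.10 at day 7. At 3 h it stood at 6.03, 9.92, 15.9, 5.17 and 11.4 CPM after MCAO and at 4.74, 6.91, 6.27 and 5.45 CPM in sham, and the groups overlapped (SE 0.44, adjusted p = 0.676). The change between 24 h and day 3 was itself tested and was -0.45 (SE 0.65, adjusted p = 0.887). At 12 h the MCAO libraries spread from 0.588 to 18.3 CPM. In that later Gencode release exons of *Bid* overlap those of *Bcl2l13* on the other strand. If this held in the counting too, reads of the pair may be mixed or dropped.

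*Pmaip1* on chromosome 18 encodes NOXA, a BH3-only protein that binds MCL1. It had few reads, 133 in the 24 MCAO libraries and 52 in the 20 sham libraries, a CPM ratio of 2.17 (95% interval 1.56 to 3.05, exact, for counting error only). The averaged log2 fold change was 1.46 (SE 0.44, adjusted p = 0.0166). At single times the change ran from 0.59 at day 3 to 2.25 at 24 h. At 24 h the MCAO libraries held 0.850, 3.74, 1.27 and 0.611 CPM and the sham libraries 0.592, 0.632, 0 and 0 CPM (SE 1.23, adjusted p = 0.594). That was 14 reads against 2, a CPM ratio of 5.62 (95% interval 1.29 to 51.0). The sham means themselves ranged from 0.306 CPM at 24 h to 2.71 CPM at day 3, and control stood at 2.11 ± 1.47 CPM (SD, n = 4). Against control the change at 24 h was -0.35 (SE 0.91, adjusted p = 0.939).

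*Casp8* (chr1:58795374-58847503, plus strand), the initiator caspase of the death receptors, was the only member called. Over the 5 times its log2 fold change averaged 1.50 (SE 0.42, adjusted p = 0.00925). At day 3 it stood at 2.14, 2.26, 4.99, 1.46 and 4.85 CPM after MCAO and at 0.725, 0.923, 0 and 0 CPM in sham. All MCAO libraries were above all sham libraries, as for 4.33% of all genes, and the change was 2.71 (SE 0.95, adjusted p = 0.0658). That was 33 reads against 4, a CPM ratio of 7.29 (95% interval 2.59 to 28.3). At 24 h the MCAO libraries held 1.70, 1.87, 2.54 and 1.83 CPM and the sham libraries 0.592, 1.26, 0 and 0 CPM. The groups did not overlap there either, as for 3.76% of all genes, and the change was 2.02 (SE 1.08, adjusted p = 0.586). That was 17 reads against 3, a CPM ratio of 4.55 (95% interval 1.32 to 24.2). Against control the change at 24 h was 0.35 after MCAO (SE 0.89, adjusted p = 0.938) and -1.67 in sham (SE 1.12). At 3 h, 12 h and day 7 the MCAO and sham groups overlapped, with changes of 0.58, 0.83 and 1.37. At day 7 the MCAO libraries held 0.577, 3.56, 5.95, 0.960 and 7.51 CPM, so 2 of them lay within the sham range of 0.467 to 2.74 CPM.

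The call of *Casp8* rests on few reads and on the threshold. It had 120 reads in the 24 MCAO libraries, of which 23 held at least 1, and 37 in the 20 sham libraries, of which 14 did (CPM ratio 2.75, 95% interval 1.89 to 4.09). When each of the 44 MCAO and sham libraries was left out in turn, the averaged change lay between 1.33 and 1.70, with adjusted p from 0.00502 to 0.0278, and the call was lost in 26 of the 44 fits. These were the fits without MCAO libraries B or C at 3 h, B or E at 12 h, A, B, C or D at 24 h, C or E at day 3 and B, C or E at day 7, or without sham libraries A, B or C at 3 h, B or D at 12 h, A, C or D at 24 h, C or D at day 3 and A, B or C at day 7. Scaling to the spike-ins also ended the call, at a change of 1.48 (adjusted p = 0.0111).

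*Ripk3* (chr14:55784995-55788865, minus strand), the kinase of necroptosis, was close to the limit of detection. It had no read in the 4 control libraries and 8 reads in 4 of the 20 sham libraries. After MCAO it had 48 reads in 13 of 24 libraries, a CPM ratio of 5.08 (95% interval 2.38 to 12.4). At 24 h each of the 4 MCAO libraries held it, at 0.850, 0.935, 0.424 and 0.611 CPM (1 or 2 reads each), and 1 of 4 sham libraries did, at 1.22 CPM. At day 3 the MCAO libraries held 0, 0, 2.5, 2.93 and 4.41 CPM and the sham libraries 0, 0, 0 and 0.937 CPM. That was 21 reads against 2, a ratio of 9.28 (95% interval 2.27 to 81.7), with a log2 fold change of 2.84 (SE 1.31, adjusted p = 0.19). At day 7 there were 13 reads after MCAO and none in sham, which is at least 3.79-fold higher against a floor of 3 reads over the sham group. Of these 13 reads 12 were in library C (7.14 CPM), 1 was in library D and the other 3 libraries had none.

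*Mlkl* (chr8:111311797-111338177, minus strand), the executioner downstream of *Ripk3*, was lower still. It had 21 reads in 8 of the 24 MCAO libraries and 5 reads in 4 of the 20 sham libraries, a CPM ratio of 3.56 (95% interval 1.31 to 12.1), and 1 read in the 4 control libraries. The averaged log2 fold change was 1.62 (SE 0.69, adjusted p = 0.112), and that of *Ripk3* was 1.87 (SE 0.77, adjusted p = 0.102). Both fitted values include times with no sham read and depend on the prior count of the fit. At day 3 the MCAO libraries held 0, 2.26, 0, 0 and 1.32 CPM of *Mlkl* and the sham libraries 0.363, 0.462, 0 and 0 CPM. In library B at day 3, which had the most *Mlkl* (5 reads), *Ripk3* had no read. At this depth 3 reads correspond to 0.281 to 0.353 CPM over an MCAO group, so absence of either gene from a group cannot be shown.

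**Figure D2:**
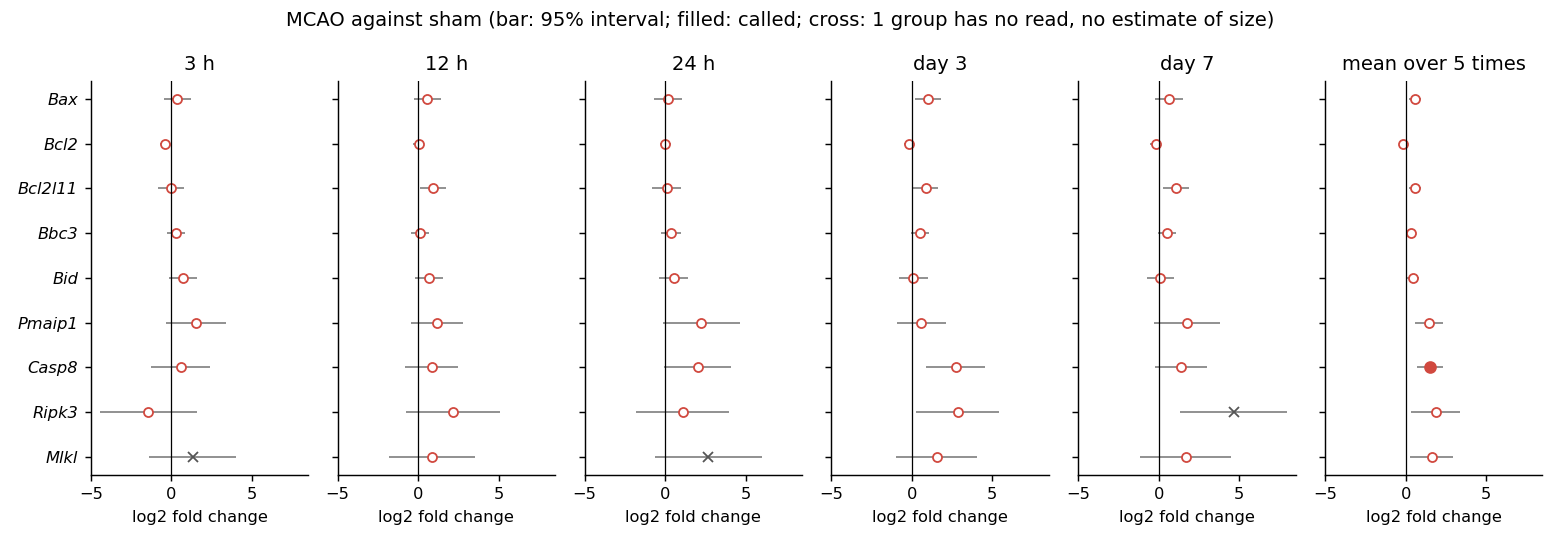
Log2 fold change of MCAO over sham for each gene (rows) at 5 times and averaged over them (panels). Bars give the 95% interval, the filled point is the only call (*Casp8*, averaged), and crosses mark comparisons with no read in 1 group, where the position is no estimate of size. The bars of *Ripk3* and *Mlkl* are the widest, and those of *Bcl2* are the narrowest.

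Compared with intact cortex in place of sham, none of the 9 genes was called at any time, while 0.13% of all genes were called at 3 h, 0.851% at 12 h, 0.275% at 24 h, 3.09% at day 3 and 1.5% at day 7. At an unadjusted p under 0.05 the members numbered 0, 1, 0, 2 and 2 in this order of times, against 9.14%, 16%, 11%, 19.8% and 14.9% of all genes, and DESeq2 called 0 at each time. The 5 comparisons share the 4 control libraries. *Bax* at day 3 lay above all control libraries, as did 4.16% of all genes. Control held 3.35, 3.93, 2.82 and 5.12 CPM, and the log2 fold change was 1.24 (SE 0.42, adjusted p = 0.0647). *Bcl2l11* differed by 0.80 at day 3 and 0.78 at day 7 (SE 0.40 each, adjusted p = 0.255 and 0.363). *Casp8* differed from control by 1.00 at day 3 (SE 0.83, adjusted p = 0.546). At 3 h, 12 h, 24 h and day 7 it differed by -0.25, 0.65, 0.35 and 1.21. Control held 1.67, 2.25, 0 and 2.28 CPM of it, and sham at day 3 against control was -1.72 (SE 1.06, adjusted p = 1). *Ripk3* had no control read, and its 21 reads at day 3 stood against that 0.

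Surgery without occlusion gave no call among the members either. Sham against control had 0 of 9 called at every time, with 0% of all genes called at 3 h, 0.0351% at 12 h, 0.01% at 24 h, 0% at day 3 and 0% at day 7 in edgeR, and DESeq2 called 0 members. At an unadjusted p under 0.05 stood 3.68%, 5.44%, 4.32%, 3.66% and 8.04% of all genes and 1 member in all, *Pmaip1* at 24 h (-2.60, SE 1.21, adjusted p = 1). The change of the MCAO effect from one time to the next was tested for all genes, and 0 of the 9 members passed in any of the 4 steps in edgeR or DESeq2 or had an unadjusted p under 0.05. The share of all genes called in these steps was 0.01%, 0.01%, 0.01% and 0%, and 7.12%, 5.08%, 8.84% and 16.2% had an unadjusted p under 0.05. When the 11 groups were ordered by mean level, the libraries of each group overlapped those of the next for all 10 neighbouring pairs in each of the 9 genes. Neighbours in this order are the closest groups, and groups tied at 0 count as overlapping. This count therefore cannot show that groups do not differ, and it was not taken for all genes. *Bax* was highest at day 3 after MCAO, *Casp8* and *Bbc3* at day 7 after MCAO, and *Bcl2* in sham at 3 h.

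Markers of macrophages and monocytes rose over the same days. Of 8 macrophage and monocyte markers, 0 were called between MCAO and sham at 3 h, 12 h and 24 h, 6 were higher at day 3 and 5 at day 7. Their summed level was 13.6 to 39.4 CPM in the sham libraries. After MCAO it was 19.6 to 34.8 CPM at 3 h, within that sham range. It was then 46.7 to 214 CPM at 12 h, 68.2 to 143 CPM at 24 h, 47.0 to 1126 CPM at day 3 and 140 to 4479 CPM at day 7. None of the 8 was at 0 in any MCAO group. Over all libraries *Lyz2* had 13342 reads, and the next of the 8, *Cd68*, had 2323. The library highest in these markers at 12 h (E), day 3 (C) and day 7 (C) also held the most *Bcl2l11* of its group, at 29.2, 30.0 and 39.3 CPM. At day 3 library D, with a marker sum of 399 CPM, held the least *Bcl2l11* (6.35 CPM). The most *Casp8* was in library E at 12 h (5.96 CPM) and C at day 3 (4.99 CPM), but in E at day 7 (7.51 CPM). The most *Ripk3* was in library B at 12 h (1.94 CPM), E at day 3 (4.41 CPM) and C at day 7 (7.14 CPM). At 3 h and 24 h the library highest in these markers was not the one with the most *Bcl2l11*, *Casp8* or *Ripk3*. Libraries E at 12 h, C at day 3 and C at day 7 were also highest of their group in neutrophil markers (1738, 713 and 38.7 CPM). Library C was also highest in microglia markers at day 3 and day 7 (2230 and 3019 CPM), and in fibroblast markers at day 7 (5971 CPM). At day 7 library C, which had 12 of the 13 *Ripk3* reads, also had the lowest neuron marker sum of all groups (6178 CPM, against 9735 to 13396 CPM in the sham libraries).

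Without the library highest in macrophage and monocyte markers in each MCAO group, a setting chosen after seeing the data, no member was called between MCAO and sham at any time or in the average. *Casp8* averaged 1.28 (adjusted p = 0.0568). *Bcl2l11* then differed by 0.50 at 12 h, 0.63 at day 3 and 0.63 at day 7, and averaged 0.37 (adjusted p = 0.187). *Ripk3* at day 7 was left with 1 read after MCAO. *Bax* at day 3 was 0.90 (adjusted p = 0.218), against 1.00 with all libraries. The marker counts that follow were taken with all libraries kept. Microglia markers were lower for 1 of 8 at 12 h and higher for 6 of 8 at day 3 and 3 of 8 at day 7. Fibroblast markers were higher for 4 of 8 at day 3 and 6 of 8 at day 7. Neutrophil markers were higher for 2 of 8 at 12 h, where library E summed to 1738 CPM, and for 3 of 8 at day 3. Of 8 lymphocyte markers 4 to 7 were at 0 in each group. Of 8 neuron markers 1 was lower at day 3 and 1 at day 7. Astrocyte markers were higher for 1 of 8 at 12 h, 1 at 24 h, 2 at day 3 and 3 at day 7, oligodendrocyte markers for 1 of 8 at day 7, and endothelial markers were lower for 2 of 8 at 12 h and higher for 2 at day 3. The part of these cell types in the values of the members was not tested. Leaving out the libraries highest in macrophage markers cannot separate it, as some of these were also highest in neutrophil, microglia or fibroblast markers.

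**Figure D3:**
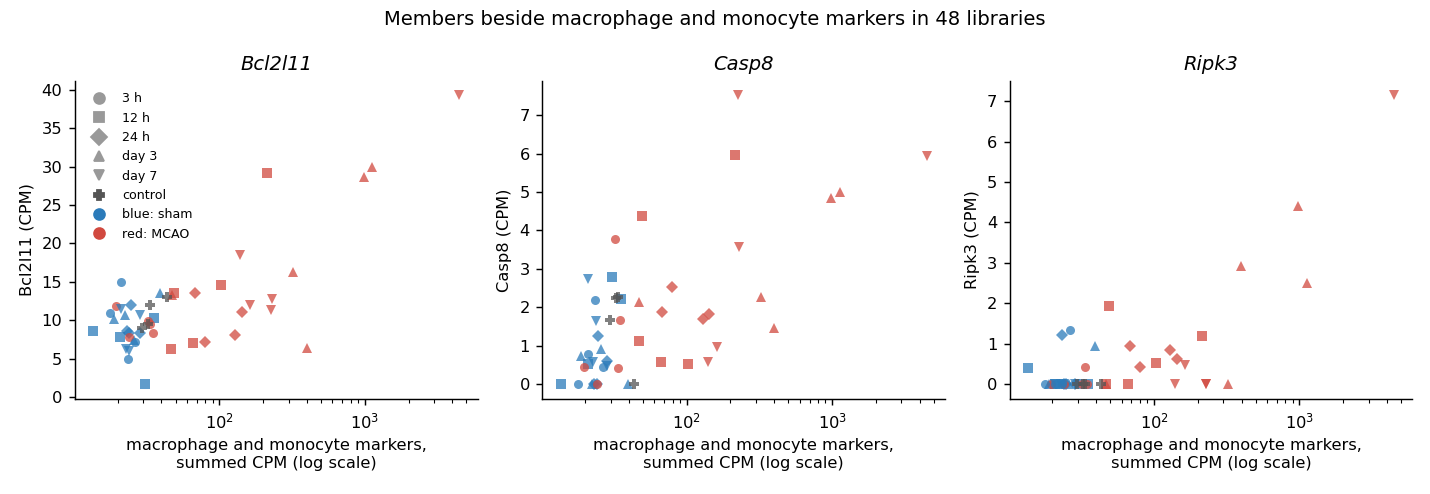
*Bcl2l11*, *Casp8* and *Ripk3* in CPM (vertical, linear) against the summed CPM of 8 macrophage and monocyte markers (horizontal, log scale), 1 point per library. Color gives the condition and shape the time. Of the 4 libraries with more than 25 CPM of *Bcl2l11*, those of day 3 and day 7 had marker sums from 983 to 4479 CPM and the library of 12 h had 214 CPM, and the sham libraries stayed between 13.6 and 39.4 CPM. Libraries E at 12 h and C at day 3 and day 7 were also highest of their group in neutrophil markers.

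The other genes of these pathways were followed in 8 lists by role, 58 genes of which 56 were tested. Between MCAO and sham 0 of them were called at 3 h, 3 rose at 12 h (5.36% of those tested), 1 rose at 24 h (1.79%), 7 rose at day 3 (12.5%), and at day 7 there were 3 that rose and 1 that fell (7.14%). Over all tested genes the shares called were 0.11%, 0.411%, 0.0901%, 4.02% and 3.5%. In the average over the 5 times 15 of the 56 rose (26.8%), against 4.89% of all genes. The lists were chosen with earlier results of these data known, so these shares are no test of enrichment. Among the death receptors, their ligands and adaptors 4 of 11 genes rose at day 3 and 1 each at 12 h, 24 h and day 7. No gene was called at any single time among 6 other BH3-only genes, 2 other effectors or 11 genes of the apoptosome and caspases.

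*Tnfrsf1a*, the TNF receptor with a death domain, rose at 12 h, 24 h and day 3. It stood at 35.0 ± 10.9 CPM (SD, n = 5) against 7.82 ± 4.23 in sham (SD, n = 4) at 12 h and at 44.2 ± 9.70 (SD, n = 4) against 10.1 ± 2.52 (SD, n = 4) at 24 h. Its log2 fold change was 2.11, 2.12 and 2.1 at 12 h, 24 h and day 3 (adjusted p = 0.0017, 0.00607 and 0.000143). *Tnfrsf1b*, the TNF receptor without a death domain, rose by 3.32 at day 3 and 3.12 at day 7 (adjusted p = 0.00107 and 0.00567). *Tnfrsf10b*, the TRAIL receptor, rose by 3.45 at day 3 (adjusted p = 0.00265), on 58 reads against 4 (CPM ratio 12.8, 95% interval 4.75 to 48.6). *Cflar*, which encodes the caspase-8 inhibitor FLIP, rose by 1.30 at day 3 (adjusted p = 0.00197), from 16.4 ± 6.53 CPM in sham (SD, n = 4) to 40.5 ± 15.5 after MCAO (SD, n = 5).

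Among the necroptosis partners 1 of 8 was called at a single time. *Zbp1*, a nucleic acid sensor that activates RIPK3, rose by 3.77 at day 3 (SE 0.94, adjusted p = 0.00771), on 40 reads after MCAO and 2 in sham (CPM ratio 17.7, 95% interval 4.58 to 151). It had no read in control or in sham at 3 h, 12 h and 24 h. Among the anti-apoptotic genes 1 of 5 was called at a single time. *Mcl1*, the guard that NOXA binds, stood at 98.0 ± 35.4 CPM at day 3 after MCAO (SD, n = 5) and 50.0 ± 2.48 in sham (SD, n = 4), a log2 rise of 0.97 (adjusted p = 0.0081). *Birc5*, an inhibitor of apoptosis that also acts in cell division, had the largest called change of the partners at single times, 4.16 at day 3 and 2.42 at day 7 (adjusted p = 6.39e-06 and 0.00904).

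Among the p53 and stress inputs 2 of 9 rose at 12 h, while at day 7 there was 1 that rose and 1 that fell. *Cdkn1a*, the cell cycle inhibitor induced by p53, rose by 1.48 and *Mdm2*, the ligase that degrades p53, by 0.87 at 12 h (adjusted p = 0.00897 and 0.00942). *Bax*, *Bbc3* and *Pmaip1*, also p53 targets, differed by 0.57, 0.12 and 1.16 at that time without passing. *Jun*, a stress factor, rose by 1.45 at day 7 (adjusted p = 0.000817). *Foxo3*, a factor that induces *Bcl2l11* and *Bbc3*, was the only partner that fell at a single time. At day 7 it stood at 53.7 ± 3.99 CPM (SD, n = 5) after MCAO and 86.5 ± 4.69 in sham (SD, n = 4), a log2 change of -0.69 (SE 0.17, adjusted p = 0.0058).

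**Figure D4:**
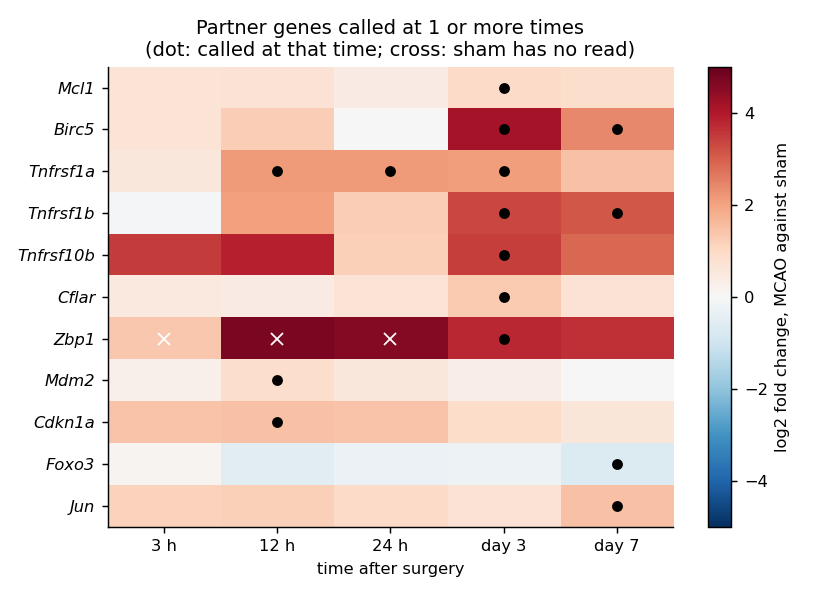
Log2 fold change of MCAO over sham (color) for the 11 partner genes called at 1 or more times, by time after surgery. Dots mark calls, and crosses mark comparisons with no sham read. *Tnfrsf1a* is called at 12 h, 24 h and day 3, and 7 of the 11 genes are called at day 3.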

How the data were processed

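RNA of 48 libraries was sequenced by 3′ end counting (QuantSeq, single end). The authors trimmed reads, removed ribosomal and mitochondrial reads, aligned them with STAR 2.5.2b to GRCm38 with spike-in sequences and assigned them to genes by the union rule of htseq-count. The deposited values used here were raw counts per gene. A deposited normalized matrix was not used. A median of 23.5% of listed alignments fell on no feature, and rows that name no gene stayed out of library sizes.

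Counts were scaled by TMM and fitted in 1 edgeR (4.0.16, R 4.3.3) quasi-likelihood model of 11 groups, over 19970 genes with more than 10 reads in all. P-values were adjusted by Benjamini-Hochberg over all tested genes, and the study's own limits (0.01, and 0.58 on the log2 scale in either direction) defined a call. CPM used the scaled library sizes. Exact intervals of read ratios cover counting error only, as does the floor of 3 reads. Scripts were tested on simulated counts.

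The members and lists were chosen with earlier results of these data known. Named partners were those called between MCAO and sham at a single time. Alternatives were DESeq2 (1.42.0), its size factors, spike-in scaling, 2 filters, another threshold, the groups compared alone, a replicate block, each library left out in turn and, added after seeing the data, the libraries highest in macrophage markers left out.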

Additional observations from a re-analysis of the deposited data

Results flagged for a closer look

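In 20 of 95 groups of 4 or 5 libraries with varying values, 1 library stood apart from the others of its group by Dixon's criterion. The rate of about 1 in 20 groups flagged by chance holds for continuous values and not for groups in which all other libraries are tied at 0, so the count of 20 cannot be read against it. In CPM, the groups were *Bcl2* at day 7 after MCAO (library C, 52.9), *Bax* at 12 h after MCAO (D, 11.2) and in sham at day 7 (D, 4.11), *Bbc3* at 12 h after MCAO (C, 19.8), *Pmaip1* in sham at 12 h (D, 3.89) and at 3 h after MCAO (C, 5.45), *Bcl2l11* in sham at 24 h (B, 12.0) and at day 7 after MCAO (C, 39.3), and *Bid* at 24 h after MCAO (B, 15.4).

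The other 11 were groups of *Ripk3* and *Mlkl* in which 1 library held 1 to 12 reads. In 10 of these all other libraries had no read, so that any read in 1 library meets the criterion. For *Ripk3* they were sham at 3 h (C, 1.34), 12 h (D, 0.389), 24 h (C, 1.22) and day 3 (D, 0.937) and MCAO at 3 h (D, 0.431) and day 7 (C, 7.14). For *Mlkl* they were sham at 12 h (C, 0.739) and day 7 (A, 0.572), MCAO at 3 h (B, 0.472) and 24 h (A, 1.27), and control (B, 0.562). Library C at day 7 after MCAO stood apart for *Bcl2*, *Bcl2l11* and *Ripk3*, and its macrophage and monocyte marker sum was 4479 CPM, against 140 to 229 CPM in the other libraries of its group.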

How the results depend on the processing

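The count of members called was 0 under every alternative in each comparison other than the one averaged over the 5 times. That count was 1 and became 4 at an adjusted p under 0.05 with no fold limit, 3 with DESeq2 in place of edgeR, 2 with no filter on low counts, 0 with spike-in scaling, 0 with a replicate block and 0 without the libraries highest in macrophage markers. Leaving out 1 library at a time gave 0 to 2. With a replicate block *Casp8* averaged 1.21 (adjusted p = 0.0605). The letters of the libraries did not pair them: same-letter deviations correlated at -0.26 to 0.15, over 0.1 in 5 of 20 pairs, and 6 of 20 correlated best with their own letter.

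Fold changes that turned direction were all uncalled. With spike-in scaling *Bcl2* and *Bbc3* at 12 h became -0.11 and -0.032 and *Bid* at day 3 became -0.15, and with the replicate block *Bid* at day 3 became -0.0028. Without the libraries highest in macrophage markers *Bcl2l11* at 3 h became 0.030, *Bcl2* at 12 h -0.036 and at 24 h -0.097, *Mlkl* at 12 h -0.57 and *Bid* at day 3 -0.11. The cause was not tested. With 1 library left out, *Casp8* at 3 h ran from -0.29 to 1.41, *Bcl2l11* from -0.22 to 0.32 at 3 h and -0.10 to 0.23 at 24 h, *Ripk3* at 3 h from -2.75 to 1.32, *Bcl2* from -0.055 to 0.10 at 12 h and -0.090 to 0.14 at 24 h, *Bbc3* at 12 h from -0.079 to 0.47, *Mlkl* at 12 h from -0.56 to 2.96, and *Bid* from -0.11 to 0.26 at day 3 and -0.085 to 0.33 at day 7.

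Over all genes the number called between MCAO and sham ran over the alternatives from 14 to 58 at 3 h, 13 to 277 at 12 h, 16 to 55 at 24 h, 339 to 1643 at day 3, 302 to 1845 at day 7 and 670 to 2854 in the average. Spike-in scaling moved the median log2 change of all genes to -0.10, -0.09, 0.14, -0.22 and 0.14 at the 5 times, and the split of higher and lower calls at day 3 from 750 and 52 to 463 and 131 and at day 7 from 413 and 285 to 403 and 86. Depth limits *Ripk3*, *Mlkl*, *Casp8* and *Pmaip1*, with a median of 0 to 3 reads per library.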

Other observations

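Some partner genes were called when the 5 times were averaged but at no single time, and they are named here after their values were seen. *Bak1*, which encodes the pore former that can stand in for BAX, averaged a log2 change of 1.13 (SE 0.26, adjusted p = 0.00116, edgeR), with 9.27 ± 6.89 CPM (SD, n = 5) at day 3 after MCAO and 2.96 ± 0.54 (SD, n = 4) in sham. *Ripk1*, the kinase upstream of RIPK3 and caspase-8, averaged 0.81 (SE 0.22, adjusted p = 0.00912). *Atf3*, a stress factor, had 105 reads at 3 h after MCAO and 4 in sham, a CPM ratio of 20.5 (95% interval 7.77 to 76.6). *Tnf*, the ligand of the TNF receptors, had 34 reads at 12 h after MCAO and 33 at day 3, against 0 and 1 in sham. Of these reads 26 were in library E at 12 h and 21 in library C at day 3, so the other 4 libraries held 8 and 12. *Bcl2a1a* and *Bcl2a1b*, near-identical copies of an anti-apoptotic gene whose reads cannot be assigned with certainty, were also called in the averaged comparison.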
